A study of Mus musculus with 9 samples.

Results

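Proteasome subunit genes are followed here through 9 RNA-seq libraries of mouse blood progenitors, in RNA bound to polysomes and in total RNA. The genes were taken by symbol: every row of the deposited count table whose name is Psm, a letter from a to g, a number and any further letters. That rule finds 50 of the 47480 genes in the table. Of these, 49 had enough reads to be tested. The exception was Psmb11. One gene the rule takes, Psmc3ip, encodes a meiotic recombination factor and is no part of the proteasome.

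The study set out to describe translation in hematopoietic stem and progenitor cells of C57BL/6 mice. Primary cells of both populations were held in cycloheximide, which stops ribosomes on the message, at 100 ug/ml for 10 min, so every library shares that treatment. Lysate set aside before the gradient gave total RNA, and the polysomes were parted on a sucrose gradient of 10 to 60% collected as 10 fractions, of which fraction 7 gave the polysomal RNA. The groups are MP polysomal RNA (3 libraries), MP total RNA (2), LSK polysomal RNA (2) and LSK total RNA (2), where the labels call MP progenitor cells and LSK stem cells.

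The labels name no animal or sort for any library and do not tie any total library to a polysomal one, so the p-values below measure spread between libraries that may be partly technical. Libraries held 27342343 to 34807735 counts, of which the 50 genes took between 1.01 and 1.38%. Ly6a, which encodes the Sca-1 antigen used to gate LSK cells, stood at 0.159 to 1.26 CPM in MP and 50.2 to 109.6 CPM in LSK libraries, and the neutrophil elastase gene Elane at 4393 to 11082 CPM in MP and 1015 to 1089 CPM in LSK libraries. CPM is the count scaled to a common library size, after TMM scaling for library composition. Igkc, an immunoglobulin gene of B and plasma cells, stood at 1.27 to 2.76 CPM in MP and 111 to 2245 CPM in LSK libraries. Libraries of 1 group were not alike in other cells' markers. The summed level of 8 genes of maturing neutrophils was 17714 CPM in MP polysomal library 1 and 14265 CPM in MP total library 1, against 511 to 1003 CPM in the other MP libraries. The summed level of 9 B and plasma cell genes was 155 to 357 CPM in MP libraries, 898 and 3366 CPM in LSK polysomal libraries 1 and 2, and 622 and 4793 CPM in LSK total libraries 1 and 2.

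The proteasome breaks down proteins tagged with ubiquitin. Its barrel-shaped core is built from rings of alpha and beta subunits, and the cutting sites sit on certain beta subunits inside. A regulatory particle caps the barrel: a base with a ring of ATPases unfolds the substrate, and a lid removes the ubiquitin chain. Under interferon, and constitutively in many blood cells, the catalytic beta subunits are replaced by immunoproteasome versions, which yield peptides suited to display on MHC class I.

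Compared per length, the 50 genes spanned a wide range. Levels were divided by the length of the longest protein-coding transcript, and the mean over the 9 libraries was highest for the core subunits Psmb2 (423 CPM per kilobase), Psmb6 (419.7) and Psma6 (399). With all annotated exons of a gene as its length, Psma6 (337), Psmb2 (302) and Psmc5 (226) came first and Psmb6 stood at 179 CPM per kilobase, so the order depends on the length used. With the longest transcript, alpha ring genes had a median of 232 CPM per kilobase (7 genes), structural beta ring genes 257 (4 genes), regulatory ATPases 235 (6 genes) and lid genes 133 (8 genes). Genes that act in building the particle were lower, with a median of 77.3 CPM per kilobase for the 4 core assembly chaperones and 36.8 for the 3 chaperones of the regulatory particle. At the low end stood Psme4, the gene of a large activator that caps the core in place of the regulatory particle, at 6.45 CPM per kilobase, and Psma8, an alpha subunit used in the testis, at 10.5. Psmb11, the thymus-specific catalytic subunit, had 0 counts in 7 libraries and 1 count each in MP total library 2 and LSK total library 2. A count of 0 allows up to 3 counts in a library, counting error only, so a difference between groups was not detectable at this depth.

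**Figure D1:**
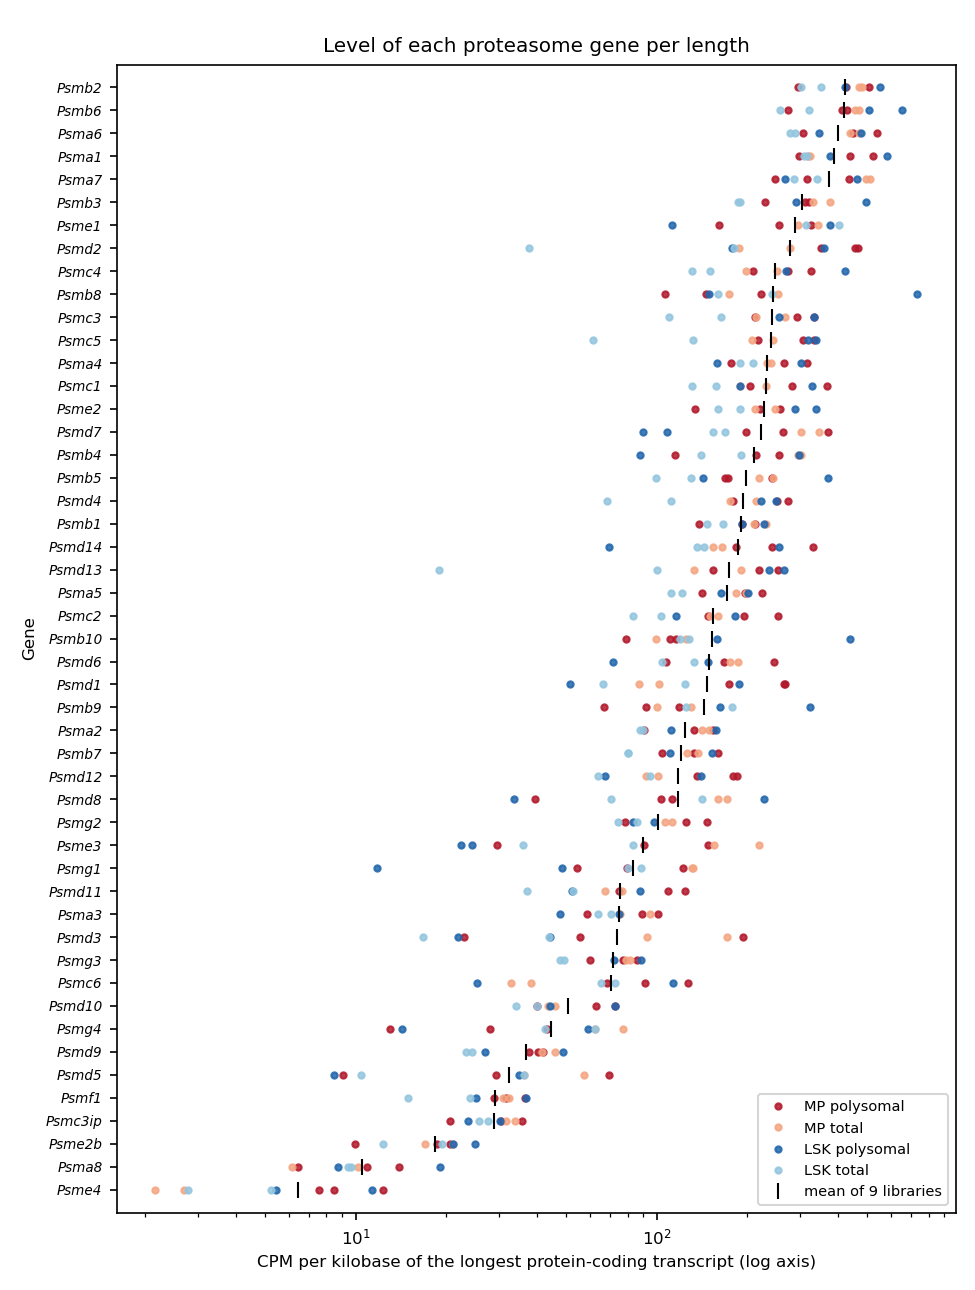
Level of 49 proteasome genes in CPM per kilobase of the longest protein-coding transcript (log axis), 1 point per library coloured by group, with a bar at the mean of 9 libraries. Psmb2, Psmb6 and Psma6 lie at the top and Psme4 at the bottom, and points of LSK total RNA often lie at the left of their row.

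In total RNA, most proteasome genes were higher in MP than in LSK libraries, though no single gene passed the test. The fitted log2 difference was above 0 for 42 of 49 genes, with a median of 0.64. Over all 16426 genes tested the median was -0.01 and 49.8% lay above 0. Over the 8218 genes with a mean level at or above that of the lowest tested proteasome gene, the median was 0.28 and 63.1% lay above 0. Both MP total libraries lay above both LSK total libraries for 37 of the 49 genes and below them for 2, Psmc6 and Psme4. Among all genes these shares were 22.8% above and 28.5% below. None of the 49 passed edgeR's quasi-likelihood test at an adjusted p of 0.05 (Benjamini-Hochberg over all genes), against 1.09% of all genes. By other measures, 3 members (6.12%) had an unadjusted p under 0.05, against 17.1% of all genes, and DESeq2 and limma-voom each called 0. Without any scaling beyond library totals the all-gene median moved to -0.36 and the members' median to 0.28, so the gap of 0.65 between them became 0.64, while 33 members lay above 0.

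In polysomal RNA the 49 genes split. The fitted MP over LSK difference was above 0 for 27, with a median of 0.01, against -0.03 for all genes and 0.11 for the abundant genes. All 3 MP libraries lay above both LSK libraries for Psmd7, Psme3 and Psmg1, and below both for Psmb10, Psmb9, Psmb6, Psme2 and Psme2b. Among all genes 15% lay above and 17.4% below, larger shares than these 3 and 5 of 49. No member passed the test, against 3.35% of all genes. Of the members, 6 (12.2%) had an unadjusted p under 0.05, against 17.8% of all genes. DESeq2 called 1 member (Psmd7) of 1624 genes in all, and limma-voom 0.

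Polysomal RNA was set against total RNA within each population. In LSK cells the polysomal over total difference was above 0 for 41 of 49 genes with a median log2 of 0.60, where all genes had 0.02 and the abundant genes 0.28. By the difference of mean log2 CPM, 37 members lay above 0, as did 4986 of 8210 genes with a mean above 10 CPM. Both LSK polysomal libraries lay above both LSK total libraries for 25 members and below both for Psmd7, Psme3 and Psmg1. Among all genes these shares were 16.2% above and 20.6% below. Without LSK polysomal library 1 the members' median became 0.34 and that of all genes -0.42, so the gap between them was 0.76, against 0.58 with all libraries. In MP cells 21 of 49 were above 0, with a median of -0.07 for the members and -0.08 for all genes. The MP polysomal libraries lay all above both MP total libraries for 6 members and all below for 8, where 16.3% of all genes lay above and 16.4% below, so neither count stood above the share of all genes. None of the 49 passed in LSK cells, where 0% of all genes did, and none passed in MP cells, where again 0% of all genes did. At an unadjusted p under 0.05 there were 8 members (16.3%) in LSK, against 12.1% of all genes, and 1 (2.04%) in MP, against 7.57%, and neither DESeq2 nor limma-voom called any.

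The difference between those 2 polysomal effects, MP minus LSK, had a median of -0.66 over the members, -0.10 over all genes and -0.24 over the abundant genes, and lay below 0 for 38 of 49. No member passed the test of that interaction, nor did any gene (0%), and 0 members had an unadjusted p under 0.05, against 5.29% of all genes. DESeq2 and limma-voom called 0 members. The LSK total libraries enter both the MP over LSK median in total RNA and the polysomal over total median in LSK. These medians are therefore not separate lines of evidence. Without LSK polysomal library 1 the members' median was -0.39 and that of all genes 0.31, a gap of -0.70, against -0.56 with all libraries. In bulk libraries, fewer cells of a type and less RNA per cell cannot be told apart, and that holds for every difference given here.

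Averaged over both fractions, MP exceeded LSK with a median log2 of 0.34, against -0.01 for all genes, and 39 of 49 members lay above 0. One member, Psmd7, passed, where 10.1% of all genes did. Averaged over both populations, polysomal exceeded total RNA with a median of 0.33, against 0.03 for all genes, and none of the 49 passed, as was true of all genes (0%). There 8 members (16.3%) had an unadjusted p under 0.05, against 14.9% of all genes. DESeq2 called 1 member (Psme4) of 765 genes in all, and limma-voom 0. Both averages treat total and polysomal libraries as independent. They are set here against all genes, whose median level was 15.4 CPM, against 232 CPM for the members. Genes of like level were not set beside them. In total RNA and for polysomal over total RNA in LSK, the abundant genes lay nearer the members than all genes did.

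**Figure D2:**
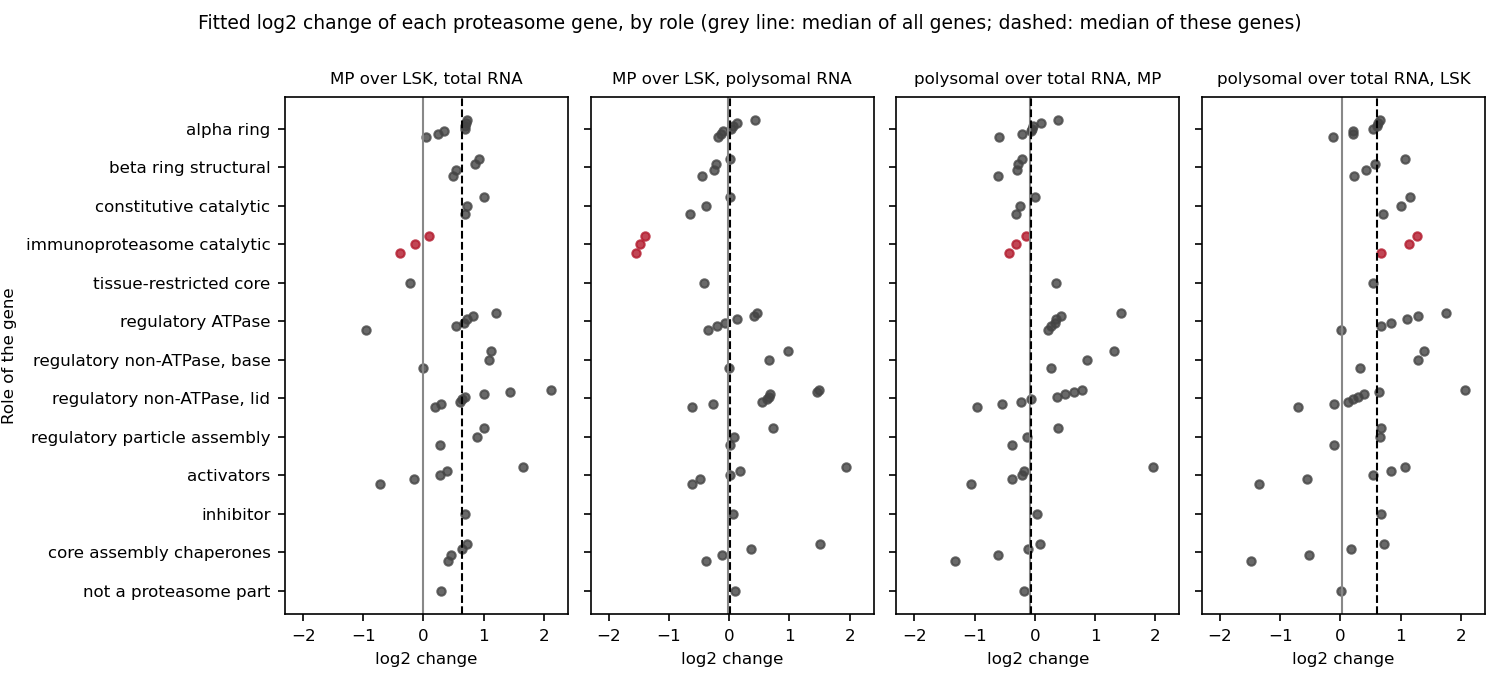
Fitted log2 change of each of 49 genes, by role, in the 4 comparisons; the solid line is the median of all genes and the dashed line that of these genes. The 3 immunoproteasome subunits (red) lie between -1.55 and -1.39 for MP over LSK in polysomal RNA.

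Of the core, the alpha ring forms the gate through which substrates pass. All 7 alpha ring genes lay above 0 for MP over LSK in total RNA, from 0.04 for Psma1 to 0.72 for Psma5, and in polysomal RNA they ranged from -0.19 to 0.44. The 4 structural beta subunits had a median of 0.70 in total RNA and of -0.23 in polysomal RNA, with ranges of 0.49 to 0.91 and of -0.45 to 0.02. Psmb3, one of them, had 253 and 289 CPM in MP total RNA against 142 and 145 CPM in LSK total RNA. In polysomal RNA it had 245, 239 and 175 CPM in MP and 223 and 379 CPM in LSK libraries. The total RNA groups were apart and the polysomal groups overlapped, and the log2 difference of 0.91 in total RNA (SE 0.46) had an adjusted p of 0.356.

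The catalytic subunits come in pairs: Psmb5, Psmb6 and Psmb7 carry the sites of the constitutive proteasome, and Psmb8, Psmb9 and Psmb10 replace them in the immunoproteasome. The promoter windows of both immunoproteasome genes of the MHC region on chromosome 17 and of their counterparts are shown, because the pairs differed between populations (values below). The windows run from 250 bases before to 50 after the RefSeq start (RefSeq, GRCm38.p6). There were 4 motifs looked for on both strands: TGACNNNGC, the core of the antioxidant response element, CCAAT, TTCNNNGAA, the gamma-activated site, and GAAANNGAA, the core of the interferon-stimulated element. Capitals mark the match in each.
Psmb8, chr17:34197945-34198244, plus strand, capitals TTCNNNGAA: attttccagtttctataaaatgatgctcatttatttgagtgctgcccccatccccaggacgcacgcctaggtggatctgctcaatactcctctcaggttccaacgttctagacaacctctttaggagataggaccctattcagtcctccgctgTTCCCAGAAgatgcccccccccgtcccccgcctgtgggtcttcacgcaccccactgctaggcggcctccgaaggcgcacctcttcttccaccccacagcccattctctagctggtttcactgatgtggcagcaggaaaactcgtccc
Psmb9, chr17:34187281-34187580, minus strand, capitals CCAAT read on the other strand: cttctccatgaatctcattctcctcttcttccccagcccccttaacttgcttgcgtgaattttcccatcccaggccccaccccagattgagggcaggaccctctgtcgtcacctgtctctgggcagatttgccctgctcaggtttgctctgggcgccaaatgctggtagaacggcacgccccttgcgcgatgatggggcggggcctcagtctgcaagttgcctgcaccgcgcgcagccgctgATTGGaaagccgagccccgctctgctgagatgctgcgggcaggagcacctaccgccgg
Psmb5, chr14:54617946-54618245, minus strand, capitals TGACNNNGC: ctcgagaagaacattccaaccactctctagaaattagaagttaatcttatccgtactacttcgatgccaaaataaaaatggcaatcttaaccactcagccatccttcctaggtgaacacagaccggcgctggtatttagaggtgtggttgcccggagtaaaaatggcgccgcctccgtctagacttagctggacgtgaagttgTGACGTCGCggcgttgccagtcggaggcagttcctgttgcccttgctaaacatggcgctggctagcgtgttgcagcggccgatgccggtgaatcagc
Psmb6, chr11:70525107-70525406, plus strand, capitals TGACNNNGC: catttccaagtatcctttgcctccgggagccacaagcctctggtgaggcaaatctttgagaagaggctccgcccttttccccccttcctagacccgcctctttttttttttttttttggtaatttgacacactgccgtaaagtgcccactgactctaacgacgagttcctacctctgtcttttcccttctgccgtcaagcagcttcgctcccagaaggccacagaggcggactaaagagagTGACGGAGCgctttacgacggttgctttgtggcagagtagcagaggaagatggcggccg
The window of Psmb10 held none of the 4 motifs. Of the 50 genes, 42 had a window in the RefSeq table. TGACNNNGC stood in 6 of these (14.3%), against 14.0% of 27025 genes, CCAAT in 15 (35.7% against 41.1%), TTCNNNGAA in 3 (7.14% against 9.55%) and GAAANNGAA in 7 (16.7% against 9.76%). A match describes letters and is not a site.

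The 3 immunoproteasome genes were the members with the lowest MP over LSK values in polysomal RNA, and for each the populations overlapped in total RNA. Psmb10 had 145, 152 and 104 CPM in MP polysomal RNA, against 208 and 573 CPM in LSK polysomal RNA. Psmb9, which lies on chromosome 17 beside the peptide transporter gene Tap1, had 124, 160.3 and 90.6 CPM in MP and 219 and 436 CPM in LSK polysomal libraries. Psmb8 had 174, 361 and 236 CPM in MP, against 243 and 1194 CPM in LSK polysomal RNA. For Psmb10 and Psmb9 the polysomal groups did not overlap, for Psmb8 they did, and LSK polysomal library 2 was the highest of all 9 for each of the 3. The log2 differences were -1.55 for Psmb10 (SE 0.49, adjusted p = 0.126), -1.39 for Psmb9 (SE 0.47, adjusted p = 0.151) and -1.48 for Psmb8 (SE 0.64, adjusted p = 0.26), so none passed edgeR's test.

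In total RNA the same genes gave other values. Psmb10 had 164 and 130.5 CPM in MP against 157 and 168 CPM in LSK total RNA, Psmb9 had 176 and 135 CPM in MP against 241 and 169 CPM in LSK, and Psmb8 had 410.1 and 283 CPM in MP against 392 and 259 CPM in LSK. The groups overlapped for all 3, with log2 differences of -0.14, -0.40 and 0.09. Of the constitutive subunits, Psmb5 had 152, 218 and 156 CPM in MP and 128 and 332 CPM in LSK polysomal libraries. In total RNA Psmb5 had 218 and 196 CPM in MP and 116 and 89.4 CPM in LSK libraries. Psmb6 had 342, 329 and 217 CPM in MP and 406 and 521 CPM in LSK polysomal libraries, but 376 and 363 CPM in MP and 255 and 205 CPM in LSK total libraries. Psmb6 thus lay below LSK in all MP polysomal libraries and above it in both MP total libraries. For Psmb7 the values were 185, 154 and 121 CPM in MP and 177 and 128 CPM in LSK polysomal RNA, and 159 and 146 CPM in MP and 93.1 and 92.9 CPM in LSK total RNA. The 3 constitutive genes had log2 differences of 1.01, 0.68 and 0.72 in total RNA, and the smallest adjusted p among them was 0.39.

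Within a library, each immunoproteasome gene can be set against the subunit it replaces, which takes out the scaling of the library. The count ratio of Psmb9 to Psmb6 was 0.363, 0.487 and 0.417 in MP polysomal and 0.469 and 0.373 in MP total libraries, against 0.54 and 0.838 in LSK polysomal and 0.943 and 0.824 in LSK total libraries. Psmb10 to Psmb7 gave 0.781, 0.986 and 0.86 in MP polysomal and 1.03 and 0.892 in MP total libraries, against 1.18 and 4.47 in LSK polysomal and 1.68 and 1.81 in LSK total libraries. Psmb8 to Psmb5 gave 1.14, 1.66 and 1.52 in MP polysomal and 1.88 and 1.44 in MP total libraries, against 1.90 and 3.60 in LSK polysomal and 3.37 and 2.90 in LSK total libraries. In every pair all 5 MP libraries lay below all 4 LSK libraries, for Psmb8 to Psmb5 by a narrow margin. Of single genes, 8.51% had all MP libraries below all LSK libraries. No such share was taken over ratios of other gene pairs, so how common this separation is was not tested. Summed over the 3 genes of each kind, the ratio was 0.651, 0.96 and 0.873 in MP polysomal and 0.996 and 0.777 in MP total libraries, against 0.944 and 2.25 in LSK polysomal and 1.70 and 1.54 in LSK total libraries, where MP and LSK libraries overlap. The mean log2 ratio differed between MP and LSK by -0.88 in total RNA and by -0.83 in polysomal RNA. The polysomal value became -0.21 without LSK polysomal library 2 and -1.46 without LSK polysomal library 1. The ratios are given as values, with no test.

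**Figure D3:**
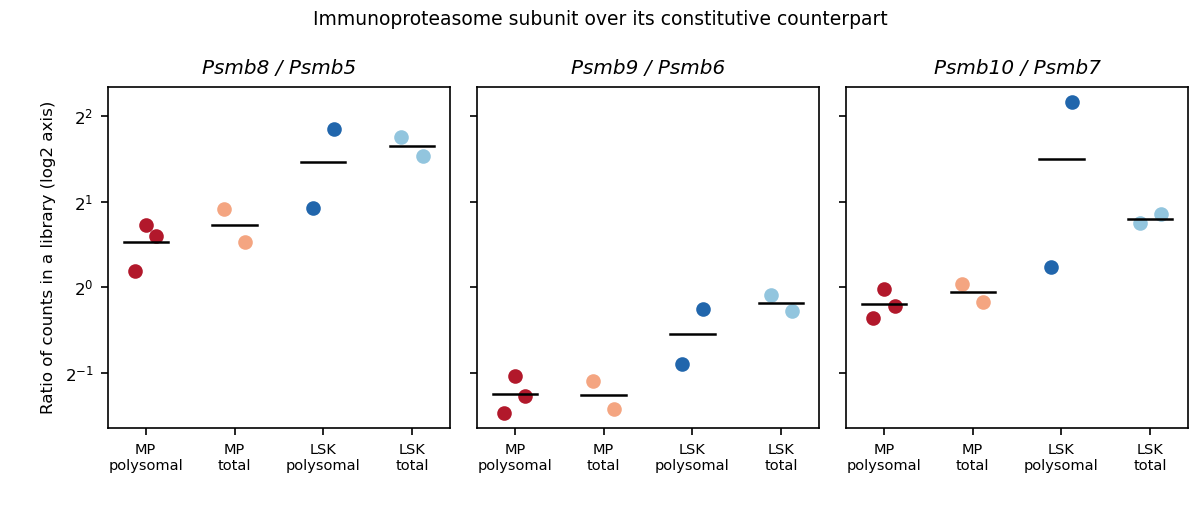
Ratio of counts of each immunoproteasome subunit to the constitutive subunit it replaces (log2 axis), 1 point per library, with a bar at the group mean. The 5 MP libraries lie below the 4 LSK libraries in each pair, from 0.363 to 0.487 against 0.54 to 0.943 for Psmb9 over Psmb6.

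Other values moved with this contrast. The summed level of 10 interferon response genes was 132 to 147 CPM in MP polysomal and 72.5 to 143 CPM in MP total libraries, against 538 and 813 CPM in LSK polysomal and 441 and 245 CPM in LSK total libraries, and all 10 had counts in every library. The B and plasma cell genes were also higher in LSK libraries, as given above; of the 9, Ms4a1 was at 0 in LSK polysomal library 2, Pax5 was at 0 in 3 of the 5 MP libraries, and Ebf1 and Jchain were each at 0 in 1 MP library. LSK total library 2 had the highest B and plasma cell sum. Its Psmb8, Psmb9 and Psmb10 levels were 259, 169 and 168 CPM, against 392, 241 and 157 CPM in LSK total library 1. LSK polysomal library 2 had the next highest B and plasma cell sum and the highest levels of the 3 genes. These were 1194, 436 and 573 CPM, against 243, 219 and 208 CPM in LSK polysomal library 1. The summed level of 6 macrophage genes was 249.9 to 507 CPM in MP polysomal and 96.8 to 216 CPM in MP total libraries, against 105 and 130.4 CPM in LSK polysomal and 37.8 and 26.4 CPM in LSK total libraries. Vcam1 carried that sum, with 452, 218 and 224 CPM in MP and 58.4 and 21.2 CPM in LSK polysomal libraries. C1qa, C1qb and C1qc went the other way, with 0.191 to 1.23 CPM in MP and 1.93 to 27.0 CPM in LSK polysomal libraries, and were highest in LSK polysomal library 2. In polysomal RNA 4 of the 6 were lower in MP, of which 2 passed edgeR's test. The part of interferon response, B lineage cells or GC content in the result was not tested. The log2 difference of LSK polysomal library 2 from library 1 went with the GC content of the transcript, with r of 0.54 over the 49 members and 0.61 over 8210 genes, which share library and depth. The 3 immunoproteasome transcripts had 55.3 to 56.5% GC, the constitutive Psmb5 and Psmb6 56.6 and 55.8%, Psmb7 48.7%, and the median member 49.8%.

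In the base of the regulatory particle a ring of ATPases unfolds the substrate. All 6 ATPase genes lay above 0 in LSK cells (median log2 0.97) and in MP cells (0.35) for polysomal over total RNA. For MP over LSK they ranged from -0.36 to 0.46 in polysomal and from -0.95 to 1.21 in total RNA. Psmc5 had 446 and 418 CPM in LSK polysomal RNA against 174 and 80.9 CPM in LSK total RNA. In MP cells it had 438, 402 and 284 CPM in polysomal and 319 and 272 CPM in total RNA. The LSK groups were apart and the MP groups overlapped, and the log2 difference in LSK of 1.76 (SE 0.51) had the smallest adjusted p of the members there, 0.231. Psmc6, another of the ring, lay the other way between populations in total RNA, with 73.4 and 85.6 CPM in MP against 145 and 162 CPM in LSK libraries. In polysomal RNA Psmc6 had 283, 205 and 153 CPM in MP and 253 and 56.4 CPM in LSK libraries. Its polysomal over total log2 difference was 1.42 in MP (SE 0.64, adjusted p = 0.659) and 0.01 in LSK.

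Psmd4, which binds ubiquitin chains, had 376 and 308 CPM in MP total RNA against 195 and 120.1 CPM in LSK total RNA. In polysomal RNA it had 479, 440.0 and 316 CPM in MP and 436 and 389 CPM in LSK libraries. MP and LSK were apart in total RNA and overlapped in polysomal RNA, with log2 differences of 1.12 (SE 0.46, adjusted p = 0.255) and 0.00. Psmd1, a scaffold of the base, had 829, 825 and 542 CPM in MP polysomal RNA against 316 and 272 CPM in MP total RNA. In LSK cells Psmd1 had 583 and 160.1 CPM in polysomal and 385 and 206 CPM in total RNA, which overlap. Its log2 difference in MP was 1.32 (SE 0.60, adjusted p = 0.663).

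The lid held the single member that passed a test. Its 8 genes ranged from -0.61 to 1.48 for MP over LSK in polysomal RNA and from 0.19 to 2.12 in total RNA. Psmd7, a structural lid subunit that pairs with the deubiquitinase Psmd14, lies on chromosome 8 (GRCm38, chr8:107580381-107588464, minus strand). It had 314, 586 and 417 CPM in MP polysomal and 545 and 477 CPM in MP total libraries, against 171 and 143 CPM in LSK polysomal and 242 and 267 CPM in LSK total libraries. All 5 MP libraries lay above all 4 LSK libraries, which held for no other member and for 4.34% of all genes. Means were 439 ± 137 CPM (SD, n = 3) in MP polysomal and 511 ± 48.2 CPM (n = 2) in MP total RNA, against 157 ± 19.9 CPM (n = 2) in LSK polysomal and 254 ± 17.2 CPM (n = 2) in LSK total RNA. Averaged over both fractions, Psmd7 rose in MP by 1.25 on the log2 scale (SE 0.31, adjusted p = 0.0356, edgeR quasi-likelihood with Benjamini-Hochberg adjustment). In each fraction alone it did not pass, with log2 1.48 in polysomal RNA (adjusted p = 0.102) and 1.01 in total RNA (adjusted p = 0.302). The call was kept without MP polysomal library 1 and lost on leaving out any other of the 9 libraries, with adjusted p from 0.0534 to 0.146. It was also lost with library totals as the only scaling (adjusted p = 0.0719) and after each library was corrected for its trend with GC content, where adjusted p was 0.0671.

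Psmd14 itself, which cuts the ubiquitin chain from the substrate, had 508, 372 and 282 CPM in MP and 393 and 107 CPM in LSK polysomal libraries. In total RNA it had 254 and 238 CPM in MP and 221 and 209.8 CPM in LSK libraries. The groups overlapped in polysomal RNA and were narrowly apart in total RNA, and the log2 difference there was 0.19 (adjusted p = 0.915). Psmd13, a structural lid subunit, had 379 and 265 CPM in MP total RNA against 199 and 37.6 CPM in LSK total RNA. In polysomal RNA it had 503, 435 and 306 CPM in MP and 468 and 527 CPM in LSK libraries. LSK total library 2 was the lowest of all 9 for Psmd13, and its polysomal over total log2 difference in LSK was 2.07 (SE 0.71, adjusted p = 0.287). Psmd13 shares 342 exon bases with Sirt3 on the opposite strand, Psmb9 shares 212 with Tap1 and Psmb7 shares 405 with Nek6, and without stated strand use reads there cannot be assigned.

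Psmd3, a lid subunit, had the widest gap between libraries of 1 group. It had 49.4, 119.9 and 416 CPM in MP polysomal and 200.1 and 367 CPM in MP total libraries, against 47.2 and 94.9 CPM in LSK polysomal and 36.0 and 94.6 CPM in LSK total libraries. The MP total values lay above both LSK total values, and the polysomal groups overlapped. MP polysomal library 3 was 8.41-fold above library 1. Averaged over fractions the log2 difference was 1.79 (SE 0.65, adjusted p = 0.121). Psmd5, a chaperone of the regulatory particle singled out after its values were seen, followed Psmd3 with r of 0.92 over the 9 libraries, which share their groups. It had 39.9, 128 and 305 CPM in MP polysomal and 159 and 253 CPM in MP total libraries, against 37.3 and 153 CPM in LSK polysomal and 45.8 and 159.9 CPM in LSK total libraries. Psmd9 and Psmd10, the other chaperones of the regulatory particle, gave log2 differences of 0.88 and 0.27 in total and of 0.08 and 0.01 in polysomal RNA. Psmd3 and Psmd5 were both low in MP polysomal library 1, LSK polysomal library 1 and LSK total library 1.

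Activators that bind the core in place of the regulatory particle had no common direction. Psme3, the nuclear activator, had 78.8, 243 and 393 CPM in MP polysomal and 414 and 582 CPM in MP total libraries, against 64.9 and 59.8 CPM in LSK polysomal and 96.0 and 222 CPM in LSK total libraries. MP lay above LSK in each fraction, while MP polysomal library 1 was below both LSK total libraries. The log2 difference over both fractions was 1.79 (SE 0.50) with an adjusted p of 0.0535 by edgeR's test, and DESeq2 gave 0.00593. Psme1 and Psme2 form the interferon-inducible activator. Psme1 had 361, 283 and 179 CPM in MP and 418 and 125 CPM in LSK polysomal libraries, and 381 and 329 CPM in MP and 348 and 447 CPM in LSK total libraries. Psme2 had 247, 212 and 129 CPM in MP and 278 and 325 CPM in LSK polysomal libraries, and 238 and 205 CPM in MP and 182 and 154 CPM in LSK total libraries. Psme1 overlapped in both fractions, and Psme2 was lower in MP polysomal and higher in MP total RNA than in LSK, with log2 differences of -0.62 and 0.40. Its near copy Psme2b, at -0.48 and 0.27, can share reads with it and is uncertain.

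Psme4 had the smallest p of the members for polysomal over total RNA, in MP cells and in the average of both populations. It had 80.0, 55.2 and 49.2 CPM in MP polysomal and 73.7 and 35.3 CPM in LSK polysomal libraries, against 14.0 and 17.5 CPM in MP total and 18.0 and 34.0 CPM in LSK total libraries. All 5 polysomal libraries lay above all 4 total libraries, which held for no other member and for 1.34% of all genes. The margin was narrow, with 35.3 CPM in LSK polysomal library 2 against 34.0 CPM in LSK total library 2. The log2 difference over both populations was 1.52 (SE 0.42, adjusted p = 0.139) by edgeR's test, and DESeq2 gave an adjusted p of 0.0161. In MP cells alone it was 1.96 (SE 0.59, adjusted p = 0.656).

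**Figure D4:**
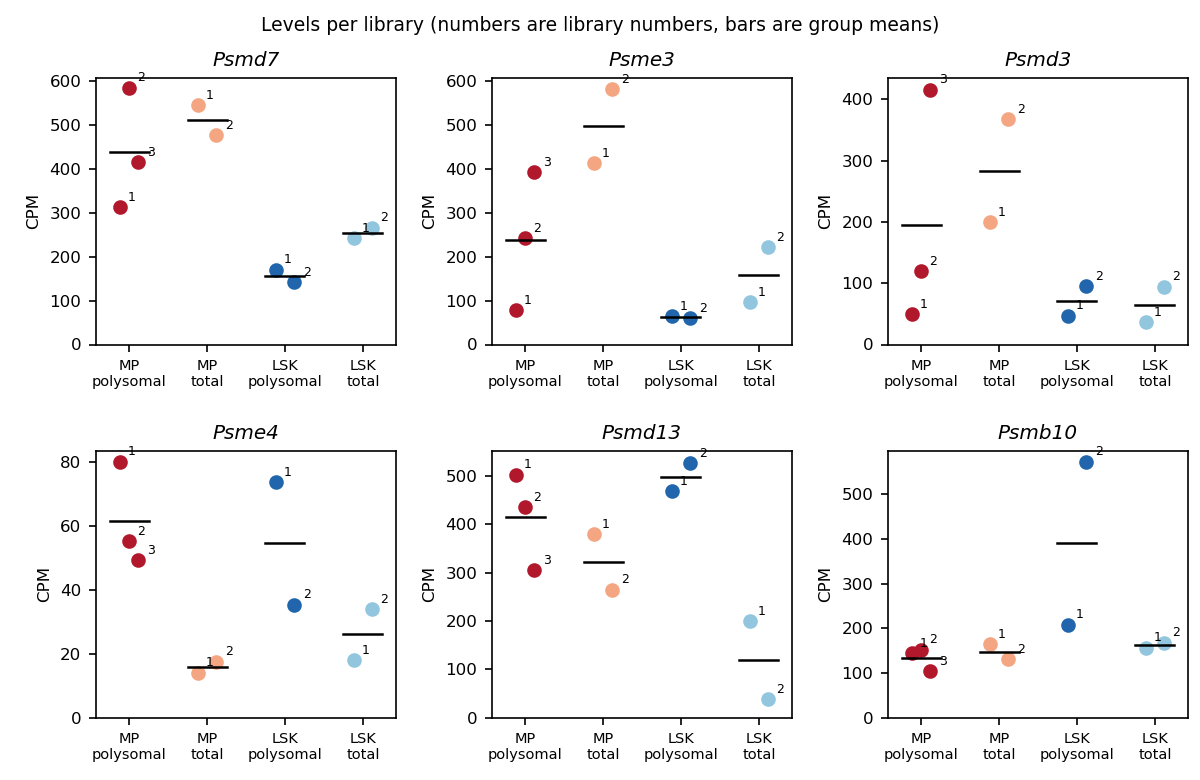
CPM of 6 genes in each library (linear axes from 0), numbered by library, with a bar at the group mean. Psmd7 separates MP from LSK libraries and Psme4 separates polysomal from total libraries by a narrow margin, while Psmb10 is highest in LSK polysomal library 2 (573 CPM).

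The remaining roles held no member that passed. Psmf1, the inhibitor, gave log2 differences for MP over LSK of 0.07 in polysomal and 0.70 in total RNA. The 4 core assembly chaperones ranged from -0.38 (Psmg4) upwards in polysomal and from 0.41 to 0.72 in total RNA. The highest of these in polysomal RNA, at 1.5, was Psmg1, singled out after its values were seen, with 83.1, 128 and 56.9 CPM in MP and 50.6 and 12.3 CPM in LSK polysomal libraries (adjusted p = 0.265). Psmc3ip, the recombination gene, had 46.1, 39.1 and 26.6 CPM in MP polysomal and 40.7 and 43.5 CPM in MP total libraries, against 38.9 and 30.4 CPM in LSK polysomal and 33.3 and 35.4 CPM in LSK total libraries. Its log2 differences were 0.10 in polysomal and 0.29 in total RNA. Psmc3ip shares 385 exon bases (21.2%) with Mlx on the opposite strand, so its values are uncertain. Psma8, the testis subunit, gave -0.41 and -0.22 for the same comparisons.

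Across the 9 libraries the highest level of a member was between 1.66 (Psmb1) and 14.0 (Psmd13) times its lowest. The median over members was 3.10, against 7.83 over all genes, whose mean level was lower. LSK total library 2 had the lowest levels of Psmd13 and Psmd2 of all libraries, and Psmd2, a base scaffold singled out after its values were seen, stood there at 112 CPM, against 525 to 1384 CPM elsewhere. As a group, the members' median deviation from their means was lowest in LSK total libraries 1 (-0.41) and 2 (-0.36) and in MP polysomal library 3 (-0.17).

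**Figure D5:**
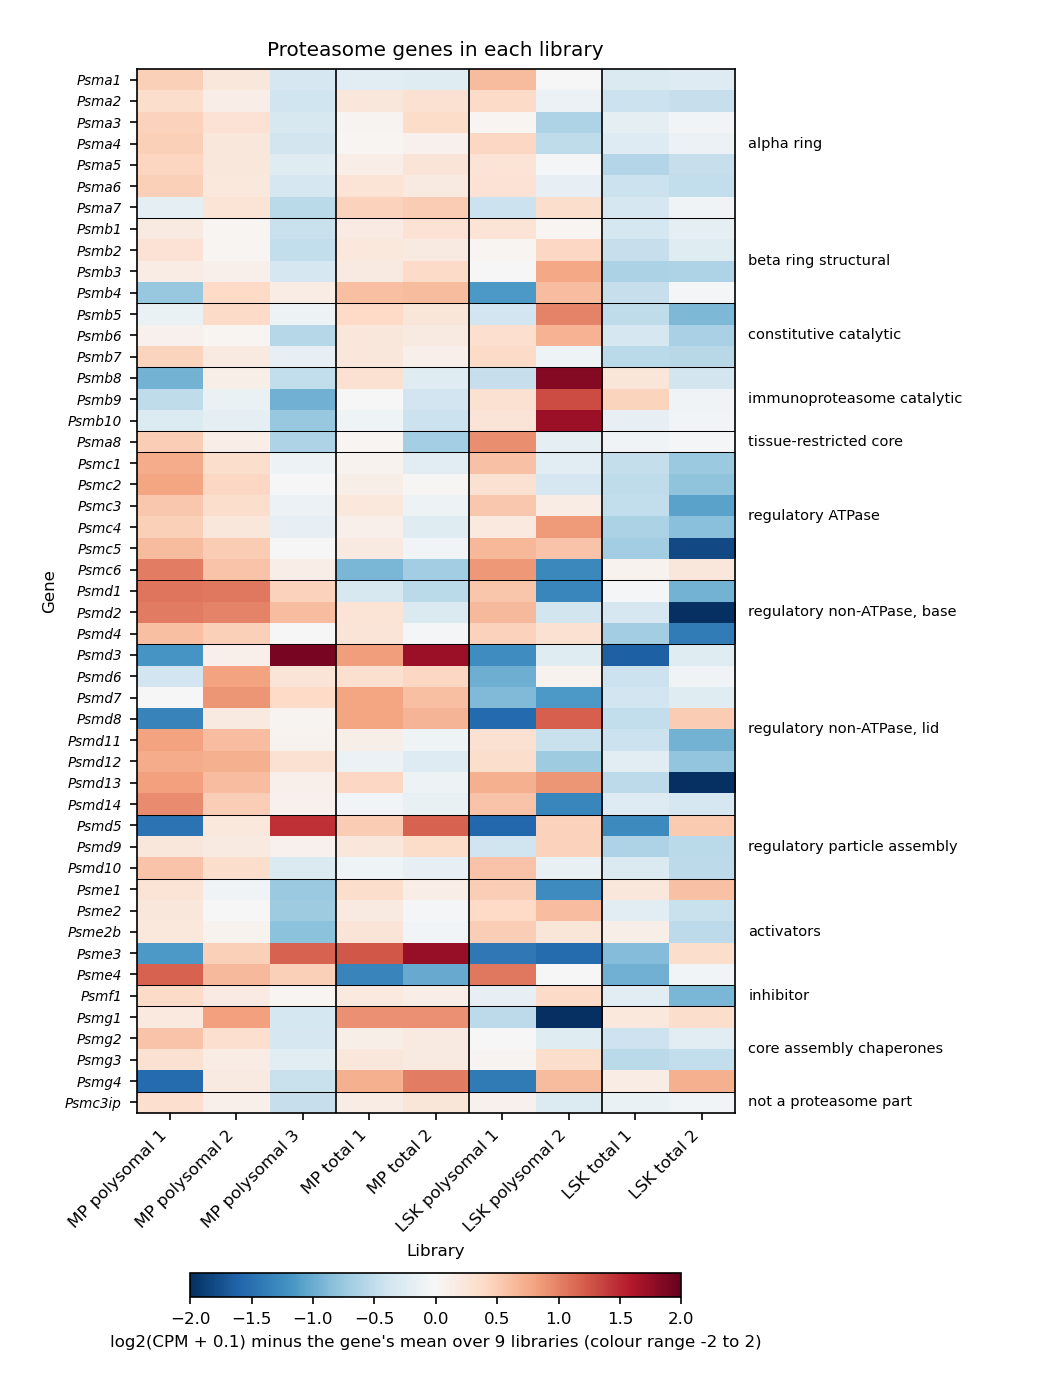
Level of 49 proteasome genes in each library as log2(CPM + 0.1) minus the gene's mean over 9 libraries, ordered by role, with MP libraries left of LSK libraries. Most rows are blue in LSK total RNA, and Psmb8, Psmb9 and Psmb10 are darkest in LSK polysomal library 2.

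Genes that work with the proteasome were read from 5 lists: 9 other parts and partners, 10 regulators of proteasome genes, 11 factors of substrate delivery, 9 genes of ubiquitin and its activation and 10 of the class I peptide pathway. None of the 49 genes passed edgeR's test in any of the 7 comparisons. At an unadjusted p under 0.05 there were 4 for MP over LSK in polysomal RNA, 3 in total RNA, 5 for polysomal over total RNA in LSK and 3 in MP, 1 for the interaction, 6 for the population average and 5 for the fraction average. Over all genes the shares were 17.8, 17.1, 12.1, 7.57, 5.29, 24.0 and 14.9% in that order, so each count out of 49 lay under the share of all genes. Over all comparisons DESeq2 made 7 calls, limma-voom 0 and limma on the authors' normalized values 1 (Irf1, population average). DESeq2 called Uba6 for MP over LSK in total RNA, Ubb and Irf1 in polysomal RNA, and Mafg and Irf1 in the population average. It called AI314180, of the first list, for polysomal over total RNA in MP and in the fraction average. Among all genes DESeq2 called 1624 in polysomal RNA, 2706 in the population average and 765 in the fraction average. No such count is given here for total RNA or for MP cells, where Uba6 and AI314180 were called. In the class I list, 9 of 10 genes were lower in MP polysomal RNA, with a median log2 of -1.13, and 6 of 10 in MP total RNA, with a median of -0.74. All genes had medians of -0.03 and -0.01 in these comparisons. LSK polysomal library 1 lay above all 3 MP polysomal libraries for 6 of the 10 genes and within their range for 4. LSK polysomal library 2 lay above all 3 for 6 genes, within their range for 2 and below all 3 for 2. The libraries of LSK polysomal RNA stood far apart for some: H2-K1, a class I heavy chain gene, had 325, 922 and 1053 CPM in MP and 857 and 5179 CPM in LSK polysomal libraries. Irf1, a transcription factor of the interferon response, had 41.0, 59.0 and 75.7 CPM in MP and 125 and 440.0 CPM in LSK polysomal libraries. MP lay below LSK there, with a log2 difference of -2.27 (SE 0.63, adjusted p = 0.0874). Of the other lists, Usp14, a deubiquitinase on the particle, gave 1.25 in polysomal RNA (adjusted p = 0.282). Ubb, a ubiquitin gene, gave -1.60 there (adjusted p = 0.0921), and Uba6, a ubiquitin-activating enzyme, gave -2.57 in total RNA (adjusted p = 0.129).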

How the data were processed

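RNA was read in 9 libraries of 4 groups, made with a SMARTer amplification kit per the labels. The deposited table of raw counts per gene was the main source. Per the submitters' processing notes, bcl2fastq, STAR, featureCounts and DESeq2 were used with mm10 (GRCm38); strand setting, annotation and tool versions: not given in the sources used here. A second table, deposited by the authors, holds normalized values on a log2 scale, with zero counts at a floor of 3.73; it served as an alternative.

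The counts were tested with edgeR 4.0.16 in R 4.3.3: TMM scaling, genes kept by filterByExpr (minimum count 10, total 15; 16426 genes), 1 mean per group, quasi-likelihood test, Benjamini-Hochberg adjustment over all genes, threshold 0.05, 5 residual degrees of freedom. The model was tested on counts simulated from the real means and library sizes. A first version that judged single draws missed its own limit on false calls. The false share was then judged as a mean over draws. Alternatives were DESeq2 1.42.0, limma 3.58.1, other scalings, no filter, replicate blocks, leaving out libraries and, added after seeing the data, removing each library's GC trend. Depth was 27342343 to 34807735 counts.

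Gene positions come from GENCODE M21 (GRCm38). The members, lists and roles were chosen with earlier results of these data known. Library values are given for members past the threshold, the 3 with the smallest p in each comparison, the catalytic subunits, the activators, Psmd14, Psmc3ip and members with 0 counts in a library (Psmb11); pathway genes are named only past the threshold or among the 2 smallest p of their list, and Ly6a, Igkc and Elane as checks; others are named as chosen after their values were seen. Library numbers were not used as pairs, since the labels do not tie total to polysomal libraries and same-numbered libraries correlated unevenly. Over 16426 genes their deviations correlated at 0.457 in LSK, and in MP at 0.445 for number 1 and -0.375 for number 2.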

Additional observations from a re-analysis of the deposited data

Results flagged for a closer look

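Of the 49 members tested, 3 had groups that lay in opposite directions, each without overlap, under 1 contrast. For polysomal over total RNA in MP and in LSK these were 2 members (4.08%), against 2.36% of all genes, and for MP over LSK in total and in polysomal RNA 2 members (4.08%), against 2.53%. Psmb3 was lower in polysomal than in total RNA in every MP library and higher in every LSK library, and the difference between those effects was -1.37 on the log2 scale (SE 0.62). Psmb6 did the same, at -1.33 (SE 0.60), and the same value stands for MP over LSK, where it lay below in polysomal and above in total RNA. Psme2 lay below LSK in MP polysomal RNA and above it in MP total RNA, a difference of -1.02 (SE 0.63). In edgeR's test of the interaction the adjusted p was 0.877 for each of the 3, so none passed. The LSK total libraries enter all 3 differences, and the members' median deviation there was -0.41 and -0.36. With 2 or 3 libraries a group, no search was made for a single outlying library by Dixon's criterion.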

How the results depend on the processing

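Every tested member had at least 211 counts in each library, and each group had 2 or 3 libraries. The part of depth in the small number of calls was not tested. The members' median kept its sign in total RNA, in LSK polysomal over total RNA and in the interaction under all settings tried. Relative to the median of all genes, it stood at 0.524 to 0.923 for MP over LSK in total RNA, at 0.479 to 0.886 for polysomal over total in LSK and at -0.823 to -0.349 for the interaction.

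With library totals as the only scaling, the members' median log2 was 0.283 for MP over LSK in total RNA, 0.238 for polysomal over total in LSK, -0.391 for the interaction, 0.11 for the population average and 0.0627 for the fraction average, and 0 members passed in the population average. With each library's GC trend removed, a choice made after seeing the data, these were 0.293, 0.316, -0.268, 0.139 and 0.137, again with 0 members in the population average. In that average, 2 members passed with RLE size factors, 3 without the count filter and 3 with DESeq2. Among all genes 1631, 2636 and 2706 passed in these 3 settings, 1883 with library totals and 2197 with the GC trend removed. In polysomal RNA 1 member passed without the filter (Psme3) and 1 with DESeq2 (Psmd7), where 1558 and 1624 of all genes did. In the fraction average 1 passed with DESeq2 (Psme4), where 765 of all genes did. The cause of these moves was not tested.

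The median for MP over LSK in polysomal RNA lay on either side of 0 across settings, and so did that for polysomal over total RNA in MP. Without MP polysomal library 1, 2 members passed in the population average, where 1264 of all genes did. Leaving out 1 library at a time, the median ranged from -0.127 to 0.275 for MP over LSK in polysomal RNA. It ranged from 0.338 to 0.66 for polysomal over total in LSK and from -0.645 to -0.388 for the interaction. The log2 ratio of immunoproteasome to constitutive catalytic counts ranged from -1.46 to -0.207 for MP over LSK in polysomal RNA, from -0.777 to 0.474 for polysomal over total in LSK and from -0.58 to 0.671 for the interaction. Without both LSK libraries numbered 2 these 3 were -0.207, -0.848 and 0.742.

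With the replicate number as a block, 1 member passed in total RNA (Psmd3, adjusted p = 0.0415) and 3 in the population average. Among all genes 570 and 1794 passed there. Deviations of same-numbered total and polysomal libraries correlated at 0.457 in LSK, and in MP at 0.445 for number 1 and -0.375 for number 2. In a group of 2 libraries the deviations mirror each other, so LSK gives a single value. Across populations, same-numbered libraries correlated at 0.592 in total RNA, and at 0.62 for number 1 and -0.0575 for number 2 in polysomal RNA. The numbers were not taken as pairs, and whether same-numbered libraries share a source was not tested.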
